A study of Homo sapiens with 4 samples.

Results

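The 10 integrin subunit genes described here are ITGA1, ITGA2, ITGA3, ITGA5, ITGA6 and ITGAV, which encode α chains, and ITGB1, ITGB4, ITGB5 and ITGB8, which encode β chains. They were taken by gene symbol from a deposited table of 19871 rows with a gene symbol, and all 10 were among the 17737 rows tested. RNA-seq was done on DU145, an established human prostate cancer cell line, in 2 shTAZ libraries (TAZ knockdown by short hairpin RNA) and 2 pLKO libraries (control cells with the pLKO hairpin vector), all grown in DMEM with 10% FBS. The series text names 2 independent hairpins without tying either to an shTAZ library, so an effect of hairpin and one of library cannot be told apart. Whether libraries of a group stem from separate cultures is unstated, and p-values here reflect only library-to-library spread, which may be technical. TAZ here is the Hippo pathway coactivator encoded by WWTR1, and by its title the series asked for its target genes.

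Integrins are the cell surface receptors that tie cells to the extracellular matrix. Each receptor joins 1 α and 1 β chain, and the α chain largely sets which ligand is bound. ITGB1 is the shared partner of many α chains, including all 6 described here, while ITGB4 joins ITGA6 alone, and ITGB5 and ITGB8 join ITGAV. Inside the cell the short tails of β chains bind talin and kindlin, which switch the receptor on, and signalling then runs through focal adhesion kinase and its scaffolds. ITGB4 is different in that its long tail links laminin-bound ITGA6 to keratin filaments in hemidesmosomes.

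The knockdown was visible in WWTR1, whose normalized read count was 839 and 719 in the shTAZ libraries, against 2508 and 3626 in the pLKO libraries (limma adjusted p = 0.0086). Recovered totals ranged from 11687727 to 14814918 reads per library. The 10 integrin subunits took 0.458 and 0.512% of the reads of the shTAZ libraries and 0.344 and 0.4% of those of the pLKO libraries. Epithelial markers were present, with KRT8, KRT18, KRT19, EPCAM and CDH1 summing to 32901 and 22380 in shTAZ libraries and 35510 and 50144 in pLKO libraries. These markers did not share a direction: KRT8 and KRT18 lay below both pLKO libraries in both shTAZ libraries (log2 fold changes of -0.95 and -0.76), EPCAM and CDH1 lay above (0.56 and 0.76), and KRT19 overlapped. Leukocyte markers summed to 446 and 172 in shTAZ libraries and 583 and 566 in pLKO libraries, almost all of it from ITGB2, and PTPRC had at most 1 read in any library. Endothelial and platelet markers summed to 430 and 538 against 372 and 413, mostly from ITGB3, and fibroblast markers to 171 and 157 against 105 and 54.1 (shTAZ against pLKO libraries in both). Most of the fibroblast sum came from COL1A1 (135 and 147 against 85.3 and 36.8). COL1A2 and PDGFRB overlapped, and COL3A1 lay above at no more than 3 reads per library. The part of other cell types in the integrin values was not tested. In a bulk library, a difference in the makeup of the culture and one in the RNA of each cell cannot be told apart.

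All 10 subunits had a higher mean in shTAZ than in pLKO cells on the log2 scale, as 49% of all tested genes did, with log2 fold changes between 0.07 and 1.51 and a median of 0.49, where the median over all tested genes was -0.0075. Both shTAZ libraries lay above both pLKO libraries for 5 of them (ITGA1, ITGA2, ITGAV, ITGB1 and ITGB8), where 18.4% of all tested genes did so. For the other 5 (ITGA3, ITGA5, ITGA6, ITGB4 and ITGB5) the groups overlapped, as for 62.6% of all tested genes, and 0 had both shTAZ libraries below both pLKO libraries, which 19% of all tested genes had. With limma on log2(value + 1) and p-values adjusted over all tested genes, 0 of the 10 passed, against 0.00564% of tested genes called higher and 0.00564% called lower. Unadjusted limma p-values were under 0.05 for 5 of 10, all higher, against 4.33% of tested genes higher and 2.72% lower. The 10 were chosen with earlier results of these data known, so these counts do not stand for integrins at large. Of the 14 other integrin subunits tested, 2 had a higher mean in shTAZ cells and 12 a lower one. On the recovered reads, limma-voom called 0 of the 10 (0.00564% of genes in each direction), as did edgeR's quasi-likelihood test (0.0451% of genes higher, 0.0113% lower). DESeq2 called 2 higher, against 0.454% of its genes higher and 0.0876% lower. The authors' deposited table called 2 of the 9 that carry an adjusted p there, ITGA1 and ITGAV, against 0.45% of its genes called higher and 0.0868% lower.

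**Figure D1:**
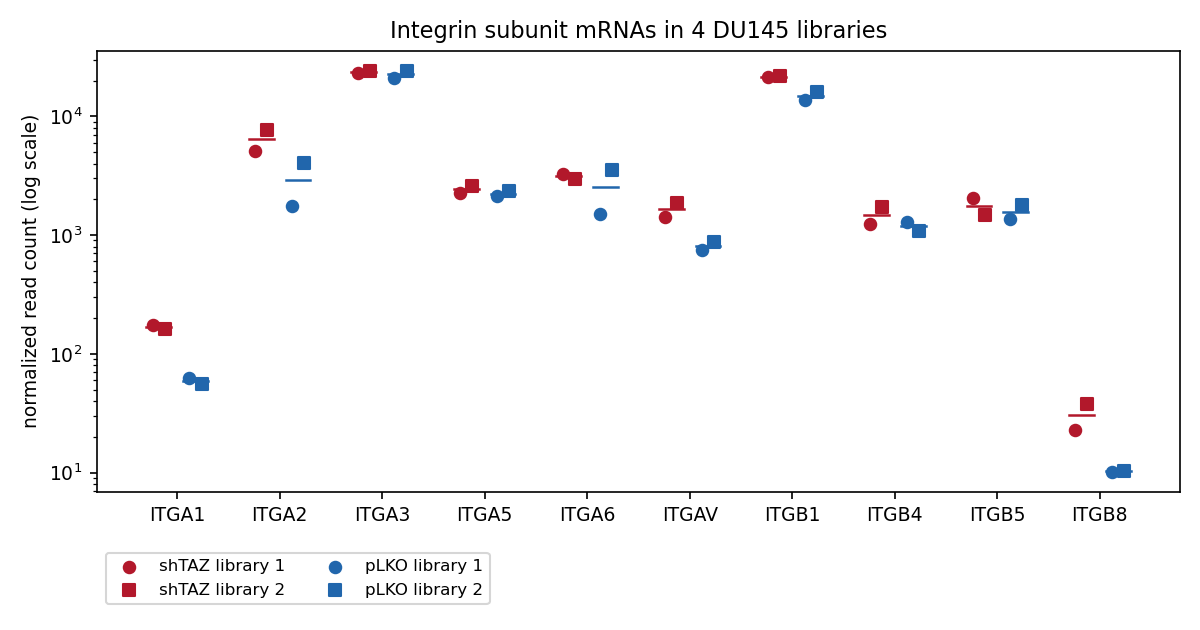
Normalized read count (vertical, log scale) of each integrin subunit in the 2 shTAZ and the 2 pLKO libraries, with a short line at each group's mean. ITGA1, ITGA2, ITGAV, ITGB1 and ITGB8 have both shTAZ points above both pLKO points, and the remaining subunits overlap.

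The subunits whose groups were apart share a property of their transcripts. In the longest protein-coding transcript of GENCODE 29, GC content was 38.8% for ITGA1, 40.2% for ITGA2, 38.3% for ITGAV, 40% for ITGB1 and 37.8% for ITGB8. It was 60.9% for ITGA3, 58.7% for ITGA5, 63.7% for ITGB4 and 54.3% for ITGB5, with ITGA6 between at 42.9%. Over all tested genes the shift ran the same way. The quartile of genes with the lowest GC content, up to 42.6%, had a median log2 fold change of 0.11, and 28.1% of them had both shTAZ libraries above both pLKO libraries. The quartile with the highest GC content had a median of -0.13, and 9.47% of its genes did so. Of the 2495 genes that were both in that lowest quartile and longer than the median of 3303 bases, which include the 5 separated subunits, 33.1% lay above, with a median of 0.15. With each library's trend against length and GC content removed, the log2 fold change was 1.19 for ITGA1, 1.0 for ITGA2, 0.77 for ITGAV, 0.42 for ITGB1 and 1.16 for ITGB8, or 77.4 to 81.2% of the value before. The limma adjusted p was then between 0.682 and 0.954 for the 10 subunits, and DESeq2 called 0 of them. Whether transcript length or GC content lies behind the differences was not tested.

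**Figure D2:**
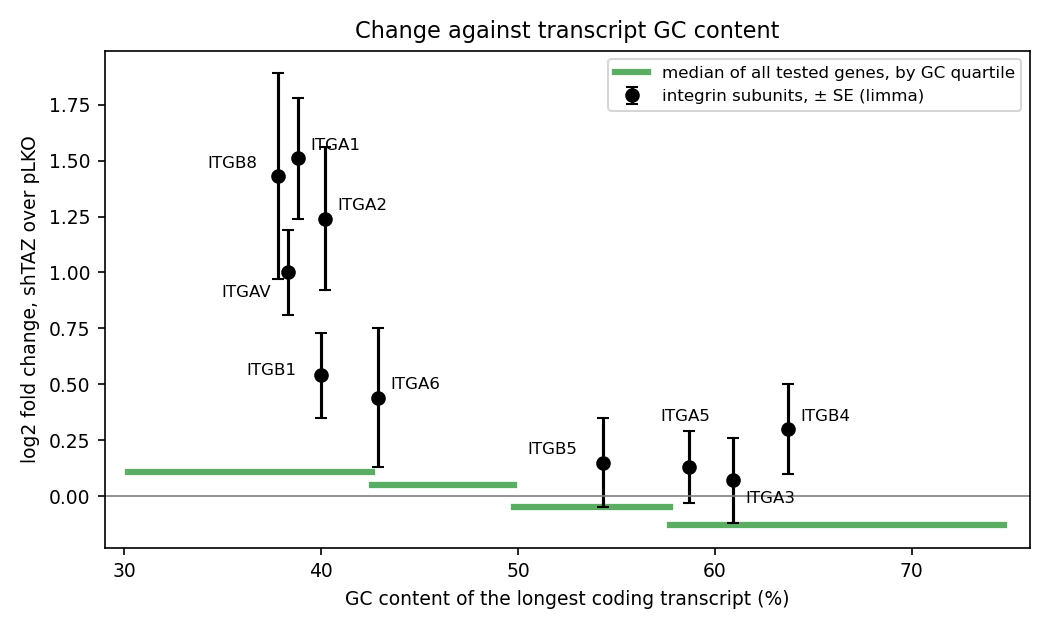
Log2 fold change of shTAZ over pLKO (vertical, ± SE) against the GC content of the longest protein-coding transcript (horizontal, %) for the 10 subunits, with green bars at the median of all tested genes in each GC quartile. The 5 subunits between 37.8 and 40.2% GC lie at 0.54 or above, and the 4 above 50% GC lie at 0.30 or below.

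**Figure D3:**
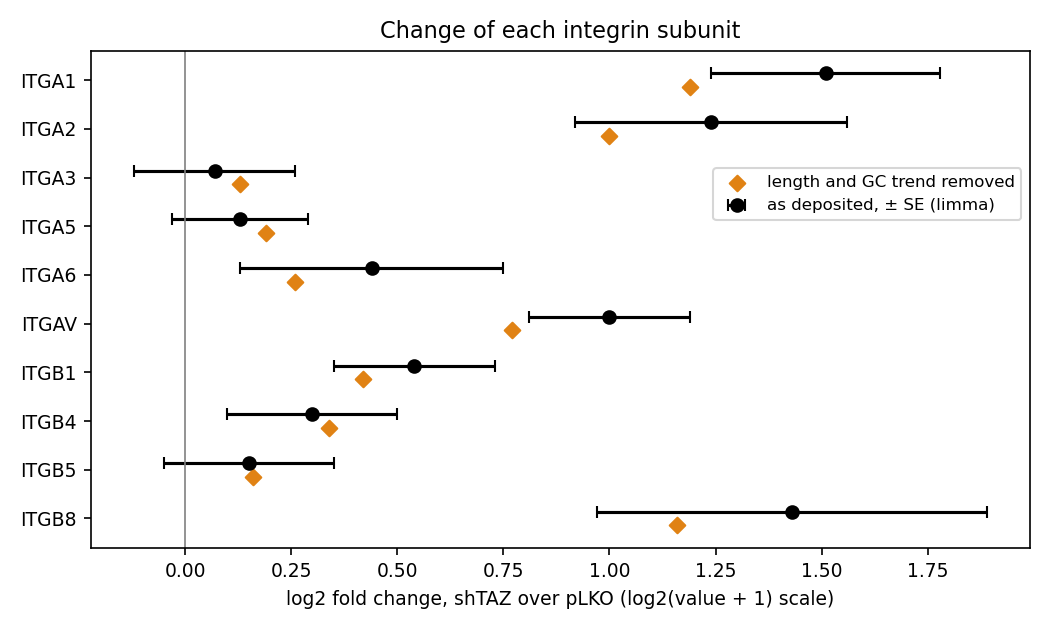
Log2 fold change of shTAZ over pLKO on the log2(value + 1) scale for each subunit, as fitted by limma (black, ± SE) and with each library's trend against transcript length and GC content removed (orange). Removal lowers ITGA1 to 1.19, against 1.51 before, and leaves ITGB5 at 0.16, against 0.15.

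Among collagen receptors, ITGA1 and ITGA2 both lay above pLKO in both shTAZ libraries. ITGA1, the chain that with ITGB1 forms the collagen receptor α1β1 and prefers network collagen IV, had a normalized count of 176 and 161 in shTAZ libraries, against 62.2 and 55.2 in pLKO libraries. The counts behind these values were 199 and 154 reads in shTAZ and 67 and 48 reads in pLKO libraries, and the groups were far apart with little spread inside each. Its mean was 168 ± 11.1 in shTAZ and 58.7 ± 4.91 in pLKO cells (SD, n = 2 each), 2.87-fold. On the log2 scale the difference was 1.51 ± 0.27 (SE), at a limma adjusted p of 0.189. In the authors' deposited table, whose fold changes are smaller than those refitted here, it rose by 0.90 ± 0.21 on the log2 scale (SE) with an adjusted p of 0.0073. DESeq2 on the recovered reads gave an adjusted p of 0.00718. The call did not hold in any fit without 1 library, where the DESeq2 log2 fold change of ITGA1 lay between 1.44 and 1.61. PELO, a gene that lies inside ITGA1 and shares 475 exon bases with it in GENCODE 29, had 760 and 676 in shTAZ libraries against 755 and 836 in pLKO libraries, and the counting rule for shared reads is unstated in the labels. ITGA1, ITGA5, ITGA6, ITGAV, ITGB1 and ITGB8 also overlap noncoding genes on the opposite strand in GENCODE 29, whose reads the library kit does not tell apart.

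ITGA2, the chain of the receptor α2β1 for fibrillar collagens, was much more abundant and varied more between libraries. Its normalized count was 5134 and 7691 in shTAZ libraries, against 1759 and 4006 in pLKO libraries. The lowest shTAZ library lay above the highest pLKO library, but the pLKO libraries differed 2.28-fold between themselves. The mean was 6412 ± 1808 in shTAZ and 2883 ± 1589 in pLKO cells (SD, n = 2 each), or 1.24 ± 0.32 higher on the log2 scale (SE, limma adjusted p = 0.447). In the authors' deposited table its log2 fold change was 0.35, with a p of 0.0725 and an adjusted p of 0.862. DESeq2 on the recovered reads gave a log2 fold change of 1.15 at nearly the same p (0.0676), so the 2 fold changes are not on 1 scale. The value depended on which control was used. The DESeq2 log2 fold change of ITGA2 was 1.87 without pLKO library 2 and 0.68 without pLKO library 1. With 1 control library left, the spread between controls cannot enter the fit. With libraries of the same number taken as a block, DESeq2 called ITGA2 higher (adjusted p = 0.00118) and limma did not (limma adjusted p = 0.0523). Same-numbered libraries did not deviate together (r = -0.0388 across all tested genes), so the numbers were not taken to pair them. Per kilobase of transcript, ITGA1 was the scarcest of the 6 α chains, at 15.7 ± 1.03 in shTAZ and 5.46 ± 0.456 in pLKO cells, while ITGA2 stood at 815 ± 230 in shTAZ and 366 ± 202 in pLKO cells (SD, n = 2 each).

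The laminin receptor chains did not separate the groups. ITGA3, which with ITGB1 binds the laminins of epithelial basement membranes, was the most abundant α chain at 23180 and 23995 in shTAZ libraries, against 21040 and 24153 in pLKO libraries. Both shTAZ values fall between the pLKO values, and the log2 fold change was 0.07 ± 0.19 (SE, limma adjusted p = 0.969). ITGA6, which joins either ITGB1 or ITGB4, had 3239 and 2988 in shTAZ libraries, against 1493 and 3537 in pLKO libraries. Here too the shTAZ values fall between the pLKO values, which differed 2.37-fold. Its log2 fold change of 0.44 ± 0.31 (SE, limma adjusted p = 0.795) turned to -0.19 without pLKO library 1 and was 1.06 without pLKO library 2. ITGB4, the hemidesmosome chain, had 1227 and 1717 in shTAZ libraries, against 1293 and 1074 in pLKO libraries. shTAZ library 2 stood above the other 3 libraries, and the log2 fold change was 0.30 ± 0.20 (SE, limma adjusted p = 0.777). It was 0.54 without shTAZ library 1, 0.06 without shTAZ library 2 and 0.17 without pLKO library 2.

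Of the chains of receptors that bind the RGD sequence of fibronectin, vitronectin and latent TGF-β, ITGAV separated the groups and ITGA5 did not. ITGAV, which pairs with several β chains, had 1407 and 1877 in shTAZ libraries, against 754 and 875 in pLKO libraries. The mean was 1642 ± 332 in shTAZ and 815 ± 85.7 in pLKO cells (SD, n = 2 each), 2.02-fold. Its log2 fold change was 1.0 ± 0.19 (SE, limma adjusted p = 0.217), and in the authors' deposited table it rose by 0.79 ± 0.17 (SE) with an adjusted p of 0.00368. DESeq2 still called it without shTAZ library 1 (adjusted p = 0.0167) or pLKO library 2 (0.0121), and not without shTAZ library 2 (0.999999) or pLKO library 1 (0.103). ITGA5, which with ITGB1 forms the main fibronectin receptor, had 2280 and 2596 in shTAZ libraries, against 2116 and 2335 in pLKO libraries, and shTAZ library 1 lay below pLKO library 2. Its log2 fold change was 0.13 ± 0.16 (SE, limma adjusted p = 0.898).

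ITGB1, the hub of the family, lay above pLKO by a smaller factor. It had 21295 and 21883 in shTAZ libraries, against 13772 and 15917 in pLKO libraries. The shTAZ libraries were close together and both clear of the pLKO range. The mean was 21589 ± 416 in shTAZ and 14845 ± 1516 in pLKO cells (SD, n = 2 each), 1.45-fold. Its log2 fold change was 0.54 ± 0.19 (SE, limma adjusted p = 0.626), and in the authors' deposited table its adjusted p was 0.255. ITGB5, an ITGAV partner that binds vitronectin, had 2058 and 1470 in shTAZ libraries, against 1376 and 1777 in pLKO libraries. The groups interleave, and its log2 fold change of 0.15 ± 0.20 (SE, limma adjusted p = 0.906) turned negative without shTAZ library 1 or pLKO library 1 (-0.09 and -0.03). ITGB8, an ITGAV partner that binds latent TGF-β, was near the floor of detection, with 26 and 36 reads in shTAZ libraries and 11 and 9 in pLKO libraries. These reads correspond to normalized counts of 23 (exact Poisson 95% interval 15 to 33.7) and 37.5 (26.3 to 51.9) in shTAZ libraries, against 10.2 (5.09 to 18.3) and 10.4 (4.73 to 19.7) in pLKO libraries. The intervals cover counting error only. The interval of shTAZ library 1 overlaps those of the pLKO libraries, and that of shTAZ library 2 does not. The log2 fold change was 1.43 ± 0.46 (SE, limma adjusted p = 0.598), and the authors' deposited table gives ITGB8 a p of 0.0419 and no adjusted p.

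The order of levels per kilobase was set by a few abundant chains in both groups. Among β chains ITGB1 took 89.2 and 90.2% of the summed level per kilobase of ITGB1, ITGB4, ITGB5 and ITGB8 in shTAZ libraries, and 87.2 and 87.7% in pLKO libraries. ITGB8 took 0.0417 and 0.0669% in shTAZ libraries, against 0.0279 and 0.0247% in pLKO libraries. Among the 6 α chains ITGA3 led with 70.8 and 67.4% in shTAZ libraries, against 80 and 73.4% in pLKO libraries, so its share was smaller in both shTAZ libraries although its level was not. The share of ITGA2 was 9.74 and 13.4% in shTAZ libraries, against 4.15 and 7.56% in pLKO libraries. ITGAV took 2.99 and 3.67% in shTAZ libraries, against 1.99 and 1.85% in pLKO libraries. ITGA5 and ITGA6 did not differ beyond the spread, at 7.84 ± 0.257 and 7.95 ± 0.921% in shTAZ and 8.32 ± 0.738 and 7.14 ± 3.12% in pLKO cells (SD, n = 2 each). In order of mean level in shTAZ cells the chains ran ITGB1, ITGA3, ITGA2, ITGA6, ITGA5, ITGB5, ITGB4, ITGAV, ITGA1 and ITGB8. Of neighbours in that order, ITGA6 and ITGA5 (554 ± 31.6 and 549 ± 50.3 per kilobase) and ITGB4 and ITGAV (249 ± 58.5 and 234 ± 47.3) had overlapping libraries (SD, n = 2 each). In pLKO cells ITGA3, at 4623 ± 450 per kilobase, stood above ITGB1, at 3923 ± 401, and in shTAZ cells ITGA3, at 4826 ± 118, stood below ITGB1, at 5705 ± 110 (SD, n = 2 each). These shares and orders between genes assume the longest protein-coding transcript of each gene (4888 bases for ITGA3, 3784 for ITGB1). Which transcripts the cells use was not measured, and ITGA3 and ITGB1 also differ in GC content (60.9 and 40%).

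Known α and β combinations were set against each other as the ratio of the levels per kilobase within each library. The number of combinations was 9, and with 2 libraries against 2 an exact two-sided permutation test cannot give a p below 0.333. The ratio of ITGA3 to ITGB1 was 0.843 and 0.849 in shTAZ libraries, against 1.18 and 1.17 in pLKO libraries. Libraries of the same group were almost equal and the groups were clearly apart, a difference of -0.48 on the log2 scale (exact permutation p = 0.333). These transcripts also differ in GC content, and with the length and GC trend removed the difference was -0.29. The ratio of ITGA5 to ITGB1 was 0.0912 and 0.101 in shTAZ libraries, against 0.131 and 0.125 in pLKO libraries, a log2 difference of -0.41, or -0.23 with the trend removed. ITGB1 thus lay further above its pLKO level than its 2 GC-rich partners did. The ratio of ITGA1 to ITGB1 was 0.00291 and 0.00258 in shTAZ libraries, against 0.00159 and 0.00122 in pLKO libraries, a log2 difference of 0.98. The ratio of ITGAV to ITGB1 was 0.0356 and 0.0462 in shTAZ libraries, against 0.0295 and 0.0296 in pLKO libraries, a log2 difference of 0.46. GC content of ITGA1, ITGAV and ITGB1 is close (38.3 to 40%), but their transcripts differ in length (10757, 7030 and 3784 bases). With the length and GC trend removed, the log2 differences were 0.77 and 0.35.

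The remaining combinations were less even. The ratio of ITGAV to ITGB5 was 0.425 and 0.794 in shTAZ libraries, against 0.341 and 0.306 in pLKO libraries, a log2 difference of 0.85 that was larger in shTAZ library 2. The ratio of ITGAV to ITGB8 was 76.1 and 62.3 in shTAZ libraries, against 92 and 105 in pLKO libraries, and rests on the few reads of ITGB8. Both groups overlapped for ITGA2 to ITGB1, for ITGA6 to ITGB1 and for ITGA6 to ITGB4. The last of these, the hemidesmosome pair, was 2.78 and 1.83 in shTAZ libraries, against 1.22 and 3.47 in pLKO libraries, so the pLKO libraries alone span more than the whole shTAZ range. Summed over the 6 α chains, the level per kilobase divided by that of ITGB1 was 1.19 and 1.26 in shTAZ libraries, against 1.48 and 1.6 in pLKO libraries. Without ITGA3 that ratio was 0.348 and 0.411 in shTAZ libraries, against 0.296 and 0.426 in pLKO libraries, and the groups overlapped.

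**Figure D4:**
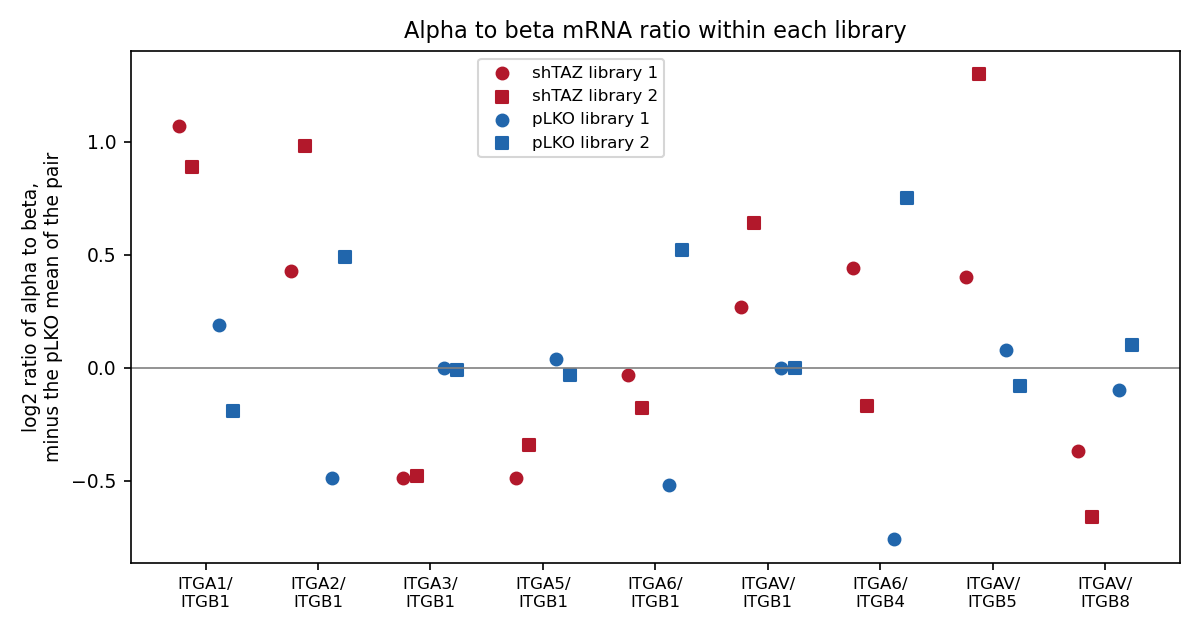
Log2 ratio of the α to the β chain within each library, drawn as the difference from the pair's pLKO mean (vertical), for 9 known combinations in the 2 shTAZ and the 2 pLKO libraries. ITGA3 to ITGB1 lies 0.48 below its pLKO mean with almost no spread, and ITGA6 to ITGB4 spreads most between the pLKO libraries.

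The 4 differences of an shTAZ minus a pLKO library show how far each control mattered. Against pLKO library 1, 9 of 10 subunits were higher in shTAZ library 1 and 10 of 10 in shTAZ library 2, with median log2 differences of 0.76 and 0.83. Against pLKO library 2, 7 of 10 were higher in each, with medians of 0.28 and 0.57. Of all tested genes, 48.3% were higher in shTAZ library 1 and 49.4% in shTAZ library 2 against pLKO library 1, and 49.3% and 49.2% against pLKO library 2. pLKO library 2 itself was above pLKO library 1 for 8 of 10 subunits, with a median of 0.20 and the largest gaps at ITGA6 (1.24) and ITGA2 (1.19), against 51% of all tested genes. ITGA1, ITGB1, ITGAV, ITGB8 and ITGA2 were higher in each of the 4 differences, which share libraries and are not separate evidence. With pLKO library 2 left out, both shTAZ libraries lay above the remaining control for 9 of 10 subunits, at a median log2 fold change of 0.85. A rule with 1 control is easier to meet than one with 2, and the share of all tested genes meeting it was not counted. The control kept, pLKO library 1, was the lower of the 2 for 8 of 10 subunits.

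The shTAZ libraries also differed between themselves for some chains. shTAZ library 2 minus shTAZ library 1 was 0.68 on the log2 scale for ITGB8, 0.58 for ITGA2, 0.48 for ITGB4 and 0.42 for ITGAV, and -0.49 for ITGB5. In a limma fit with each shTAZ library as its own group, the spread comes from the pLKO libraries alone and each single shTAZ library is assumed to vary like them. After adjustment 0 genes passed. Unadjusted, 524 genes were under 0.05, with 0 of the 10 subunits among them, and ITGB4 had the smallest of their limma p-values, 0.114. Testing only genes with a value of at least 10 in 2 libraries, that fit called 26 genes, and 29 with the length and GC trend removed, with 0 of the 10 subunits among them in either. With the trend removed, ITGB4 had an unadjusted limma p of 0.0284.

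The 250 bases upstream of the annotated start were read from RefSeq (GRCh38.p14) for 8 of the 10 genes, all but ITGA3 and ITGB4. The promoters are shown because TAZ has no DNA-binding domain and acts through TEAD factors, which bind GGAATG. Shown are the chains called in the authors' deposited table, ITGA1 and ITGAV, and both genes of the 8 whose window holds GGAATG, ITGB1 and ITGA5. Capitals mark GGAATG and the GC box GGGCGG, each on either strand, and no 2 matches overlap.
ITGA1 (chr5:52787666-52787915, plus strand): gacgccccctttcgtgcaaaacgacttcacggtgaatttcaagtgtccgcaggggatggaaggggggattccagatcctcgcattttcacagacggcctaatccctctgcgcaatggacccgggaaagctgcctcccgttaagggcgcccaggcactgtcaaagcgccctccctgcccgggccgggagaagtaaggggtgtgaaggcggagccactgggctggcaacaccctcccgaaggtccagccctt
ITGAV (chr2:186589806-186590055, plus strand): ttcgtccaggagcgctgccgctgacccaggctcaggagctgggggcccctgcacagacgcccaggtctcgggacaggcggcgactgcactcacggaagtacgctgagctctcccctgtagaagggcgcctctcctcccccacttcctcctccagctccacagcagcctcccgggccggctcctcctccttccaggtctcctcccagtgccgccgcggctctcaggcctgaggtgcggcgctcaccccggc
ITGB1 (chr10:32958231-32958480, minus strand): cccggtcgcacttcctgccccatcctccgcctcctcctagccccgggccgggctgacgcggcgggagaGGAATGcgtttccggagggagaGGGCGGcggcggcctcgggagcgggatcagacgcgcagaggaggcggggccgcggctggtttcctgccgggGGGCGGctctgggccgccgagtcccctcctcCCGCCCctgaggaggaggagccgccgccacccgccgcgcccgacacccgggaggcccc
ITGA5 (chr12:54419267-54419516, minus strand): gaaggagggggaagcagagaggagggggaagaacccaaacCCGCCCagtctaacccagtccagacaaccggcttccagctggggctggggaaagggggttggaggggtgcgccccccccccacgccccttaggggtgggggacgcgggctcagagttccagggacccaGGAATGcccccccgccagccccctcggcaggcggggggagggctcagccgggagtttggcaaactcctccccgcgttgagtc

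GGAATG on either strand occurred in 2 of the 8 windows, starting 182 bases upstream in ITGB1 and 82 bases upstream in ITGA5, where 11.9% of 35116 RefSeq promoters of the same length hold it. ITGB1 separated the groups and ITGA5 did not, and the windows of ITGA1 and ITGAV hold no such letters. The AP-1 motif TGANTCA occurred in 0 of the 8, against 6.57% of all promoters. The GC box GGGCGG occurred in 5 of the 8 (ITGA2, ITGA5, ITGB1, ITGB5 and ITGB8), against 42.6%. TATAAA occurred in 1 of the 8, ITGA6, 32 bases upstream, against 10.7%. A match in these letters is a description of the window and not of binding.

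Of the other 16 human integrin subunits, 14 were tested. Both shTAZ libraries lay above both pLKO libraries for 2 of them (14.3%, against 18.4% of all tested genes) and below for 9 (64.3%, against 19%), with a median log2 fold change of -0.62, and 10 of them stayed under 100 normalized counts in every library. None of the 14 passed limma after adjustment. An unadjusted limma p under 0.05 was found for 2 higher and 2 lower, against 4.33% of tested genes higher and 2.72% lower. GC content was 53.2 to 61.1% for the 9 below, and 49 and 52.3% for the 2 above. In the 2 GC quartiles from 49.8% upward, 23.3 and 29.3% of tested genes lay below. A link to GC content was not tested. ITGB2, the β chain of leukocyte integrins, had 414 and 154 in shTAZ libraries, against 532 and 529 in pLKO libraries (limma adjusted p = 0.607), with the low value in shTAZ library 2. ITGA9, which joins ITGB1 and binds tenascin-C, had 19.5 and 13.5 in shTAZ libraries, against 7.42 and 4.6 in pLKO libraries (limma adjusted p = 0.685). ITGB3, a further ITGAV partner and the other subunit above both controls, was named after its values were seen. It had 398 and 503 in shTAZ libraries, against 314 and 345 in pLKO libraries (limma adjusted p = 0.707).

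Genes that act with integrins inside the cell were counted in the same way, beside 18.4% above and 19% below for all tested genes. Of 18 activators, inactivators and tail-binding adaptors, 0 passed limma or the authors' deposited table, 5 (27.8%) had both shTAZ libraries above and 3 (16.7%) below both pLKO libraries, at a median of 0.14 on the log2 scale. Unadjusted limma p-values were under 0.05 for 4, all higher, against 4.33% of tested genes higher and 2.72% lower. LIMS2, an adaptor of integrin-linked kinase, had 48.7 and 100 in shTAZ libraries, against 23.2 and 24.2 in pLKO libraries (limma adjusted p = 0.476). FLNA, the actin crosslinker filamin A that binds β chain tails, had 40325 and 34648 in shTAZ libraries, against 23215 and 28656 in pLKO libraries (limma adjusted p = 0.685). Of 13 signalling kinases and scaffolds, 4 (30.8%) lay above and 2 (15.4%) below, with a median of -0.07. Here 1 higher and 1 lower had an unadjusted limma p under 0.05. PTK2B, a kinase related to focal adhesion kinase, had 288 and 300 in shTAZ libraries, against 218 and 202 in pLKO libraries. TNS4, a tensin that binds ITGB1, had 149 and 76.1 in shTAZ libraries, against 139 and 300 in pLKO libraries (limma adjusted p = 0.69 for both).

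Of 15 partners of integrins in the membrane and in trafficking, 3 (20%) lay above and 4 (26.7%) below both pLKO libraries, with a median of 0.01, and 0 passed. All tested genes had 18.4% above and 19% below. Unadjusted limma p-values were under 0.05 for 0 higher and 3 lower, against 4.33% of tested genes higher and 2.72% lower. CD82, a tetraspanin that associates with integrins, had 168 and 112 in shTAZ libraries, against 223 and 289 in pLKO libraries (limma adjusted p = 0.567). SLC3A2, the CD98 heavy chain that binds β chains, had 4215 and 3155 in shTAZ libraries, against 4402 and 5981 in pLKO libraries (limma adjusted p = 0.69). Of 27 integrin ligands, 7 (25.9%) lay above and 3 (11.1%) below, with a median of 0.09, and limma called 0. Its unadjusted p was under 0.05 for 7 higher and 1 lower, beside the same 4.33% and 2.72% of tested genes. The authors' deposited table called 2, both higher and both ligands of RGD-binding or ITGA9-containing receptors. TNC, tenascin-C, had 10249 and 13881 in shTAZ libraries, against 5007 and 5305 in pLKO libraries (adjusted p = 3.99e-06 in the authors' deposited table, limma adjusted p = 0.128). edgeR also called TNC (adjusted p = 0.0426), and DESeq2 called it with the length and GC trend in the fit (adjusted p = 9.65e-05). FN1, fibronectin, had 766 and 1840 in shTAZ libraries, against 540 and 545 in pLKO libraries (adjusted p = 0.0192 in the authors' deposited table, limma adjusted p = 0.526). Neither edgeR (adjusted p = 0.225) nor DESeq2 with the trend in the fit (adjusted p = 0.138) called FN1. The FN1 difference came mostly from shTAZ library 2, while its main receptor chain ITGA5 did not separate the groups.

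The mean profile of the 10 subunits, as the centred log2 value, was 0.26 and 0.43 in shTAZ libraries and -0.50 and -0.18 in pLKO libraries. ITGB1 was the subunit closest to it (Euclidean distance 0.182 over the 4 libraries) and ITGA1 the farthest (0.918). Among 10227 other genes with a mean of at least 100, the closest were NCOA2 (0.0615), KCNQ3 (0.0631), MCC (0.0714), GPR180 (0.0781) and MAMLD1 (0.0791). The order of the libraries in this profile is also that of long transcripts with low GC content in all tested genes. Their median centred values were smaller in size, at 0.04 and 0.13 in shTAZ libraries and -0.14 and -0.00 in pLKO libraries. A shared cause was not tested.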

How the data were processed

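Per the labels' protocols, RNA was extracted with RNAiso Plus, 0.2 µg per sample was used, and mRNA was captured on poly-T beads with a kit that, as described, does not mark strand, so opposite-strand genes cannot be told apart. The deposited table holds 1 signal per gene and library, a read count divided by a size factor, beside the authors' DESeq2-style comparison columns, per the file headers. In those columns the authors deposited a log2 fold change with its error. They also deposited a score (the test statistic behind it), a p-value and that p-value after adjustment, per the file headers. The submitters' processing notes list STAR, DESeq2 and hg19 without saying what each did, and the counter and annotation are unstated here. Dividing by each library's smallest nonzero value turned 100% of values into whole reads (within 0.001 reads). Of 19897 rows, 26 had symbols turned into dates (0.153 to 0.191% of reads) and were left out.

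limma (3.58.1, R 4.3.3, intensity trend) was fitted on log2(value + 1) for rows with a value of at least 1 in at least 2 libraries, with Benjamini-Hochberg adjustment and a threshold of 0.05. The log2(value + 1) scale understates changes of low genes. edgeR (4.0.16), limma-voom and DESeq2 (1.42.0) on recovered reads were alternatives, with other pseudocounts, filters and scalings, a replicate block, and each library left out. Lengths and GC content, found for 14580 tested rows, came from GENCODE 29 (GRCh38). As the processing notes name another build, GENCODE coordinates served only to find exon overlaps between genes of that annotation. The trend is a spline with 4 degrees of freedom each. The fits were tested on simulated data. Members and lists were chosen with earlier results of these data known. Named genes were the 10 subunits, WWTR1 and, of each further list, genes past limma or the authors' deposited table, or else the 2 with the smallest limma p.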

Additional observations from a re-analysis of the deposited data

How the results depend on the processing

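Precision is limited by having 2 libraries per group and, for ITGB8, also by depth (9 to 36 reads per library). limma's genes called higher and lower (1 and 1) stayed 1 and 1 under both pseudocounts, both filters, both scalings, limma-voom and the removal of the length and GC trend. The genes called higher and lower were 8 and 2 with edgeR, 57 and 11 with DESeq2 and in the authors' deposited table, and 20 and 3 with DESeq2 and the trend. Without 1 library in turn limma called 0 genes, and DESeq2 called 2 to 63 higher and 2 to 45 lower (35 and 45 without shTAZ library 1, 63 and 16 without pLKO library 2). Same-numbered libraries did not deviate together (r = -0.0388 over 17737 genes, and -0.119 over 10236 with a mean of at least 100, across genes), so the numbers were not taken to pair them. The replicate block gave 4 higher and 3 lower, with 0 integrin subunits, 6 and 3 with the trend removed as well, and in DESeq2 21 and 5 with 2 subunits, ITGA2 and ITGAV. Crossing the numbers gave 156 and 85, with 3 subunits.

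Apart from the blocked fits and those without 1 library, 0 integrin subunits were called with limma, edgeR or DESeq2 with the trend. DESeq2 and the authors' deposited table each called 2, ITGA1 and ITGAV, both higher. The median log2 fold change of the 10 (0.49) was 0.38 with the trend removed and 0.43 with DESeq2. It was 0.30 in the authors' deposited table, whose fold changes for these subunits are smaller than those of DESeq2 at similar p-values. Without 1 library it was 0.44 to 0.85 in limma and 0.45 to 0.86 in DESeq2. The subunits with both shTAZ above both pLKO libraries numbered 6 with libraries scaled to equal read totals, and 5 under the other alternatives with all libraries. Without 1 library they numbered 6 to 9, but leaving a library out can only keep or raise this count, so it does not show stability. The share of all tested genes was not counted under these settings. Without pLKO library 1 the log2 fold changes of ITGA3 (-0.03 with both tools) and ITGA6 (-0.19 with limma, -0.18 with DESeq2) turned. That of ITGB5 turned without pLKO library 1 (-0.03 and -0.01) and without shTAZ library 1 (-0.09 and -0.10). Over the limma fits without 1 library they reached 0.16 for ITGA3, 1.06 for ITGA6 and 0.40 for ITGB5, and over those of DESeq2 0.17, 1.06 and 0.39. Of 240 alternative fold changes of single subunits 219 kept their direction and their side of the threshold, and the cause of the others was not tested. Between the shTAZ libraries, 26 genes passed with the filter at 10 and 29 with the trend removed, against 0; the spread in that fit comes from the pLKO libraries alone, so these counts do not measure a hairpin difference. The DESeq2 combinations, the crossed numbers and the alternatives to this last result were chosen after seeing the data.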
